A study of Mus musculus with 12 samples.

Results

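CpG-A against control is the comparison of 3 libraries of plasmacytoid dendritic cells cultured with a class A CpG oligodeoxynucleotide with 3 libraries of control plasmacytoid dendritic cells. The cells came from bone marrow of BALB/c mice at postnatal day 56 to 63. CpG-A was given at 0.5 µM for 24 h, and the labels name no oligodeoxynucleotide for the control. The other 6 of the 12 libraries of the series hold the same cells with CpG-B or CpG-C, 3 each, at the same dose and time, and they enter here through the shared estimate of spread and a closing comparison. The genes compared are the 11641 of 21573 in the deposited table that reached 1 FPKM (fragments counted per kilobase of the transcript, scaled to the size of the library) in at least 3 of the 12 libraries. Of these, 9948 are known genes and 1693 carry only a name given by the sequencing provider. The labels say that the cells were sorted, without the gate. Whether replicates are separate animals is not stated, and each p-value therefore measures only the spread between these samples, which may be technical. In what follows CpG-A 1 stands for CpG-A replicate 1, and likewise for the other libraries.

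Plasmacytoid dendritic cells detect unmethylated CpG DNA in endosomes through TLR9, which signals through MyD88 to IRF7 and to NF-kB. IRF7 drives the genes of the type I interferons, and secreted interferon acts back through the receptor made of Ifnar1 and Ifnar2 and through JAK kinases on transcription factors that switch on the interferon-stimulated genes. NF-kB drives cytokines, chemokines and co-stimulatory molecules. Class A oligodeoxynucleotides carry a palindromic phosphodiester CpG core between phosphorothioate poly-G ends, form aggregates, and are known for strong induction of interferon in these cells and weaker maturation than class B.

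The libraries differed in the number of genes they held and in how closely they followed their group. At 1 FPKM there were 7437, 8967 and 9926 genes in CpG-A replicates 1, 2 and 3, against 8516, 9656 and 10622 in control replicates 1, 2 and 3. The mean Pearson correlation across the tested genes with the other libraries of the group was 0.764, 0.794 and 0.812 with CpG-A, against 0.763, 0.800 and 0.810 in control. The libraries numbered 1 were thus lowest in genes at 1 FPKM and in correlation in both groups. Above 0 FPKM, CpG-A 1 held the fewest genes of its group (11980, against 12638 and 12534). Control 1 held the most of its group (15004, against 12985 and 12871). Of the 98 genes named here that were called, 46 were not called without the libraries numbered 1 (22 of 69 rises and 24 of 29 falls). The median log2 difference over all tested genes was -0.27. It moved to -0.11 with median-of-ratios scaling and to -0.14 with upper quartile scaling, so differences are to be read against these medians.

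With CpG-A, transcripts of interferon-stimulated genes, 2 alpha interferons, chemokines such as Cxcl10 and Ccl4, the co-stimulatory receptor Cd40, and the near-identical survival genes Bcl2a1d and Bcl2a1b were among those called higher, and a smaller set was lower, often down to the floor of the measurement. Of the tested genes, 122 (1.05%) were called higher and 49 (0.421%) lower, together 171 (1.47%), at an adjusted p below 0.05 in limma's moderated test on log2(FPKM + 1). The log2 differences of the 25 largest rises that could be named lay between 5.30 and 8.40, and those of the 25 largest falls between -3.74 and -7.35. In all 171 the CpG-A and control libraries did not overlap, a property that 673 tested genes (5.78%) had in the higher direction and 1275 (11%) in the lower. In 20 of the 122 rises every control library lay below 1 FPKM, and in 26 of the 49 falls every CpG-A library did. Of the 25 largest rises 22 were called with any 1 of the 12 libraries left out, against 8 of the 25 largest falls.

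The counts differed between fits. With a term for the replicate number there were 191 higher and 94 lower, without the 4 libraries numbered 1 there were 74 and 12, and a fit to the 6 libraries of the comparison alone called 17 and 2. The lower calls numbered 26 without CpG-A replicate 1 and 31 without control replicate 2.

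**Figure D1:**
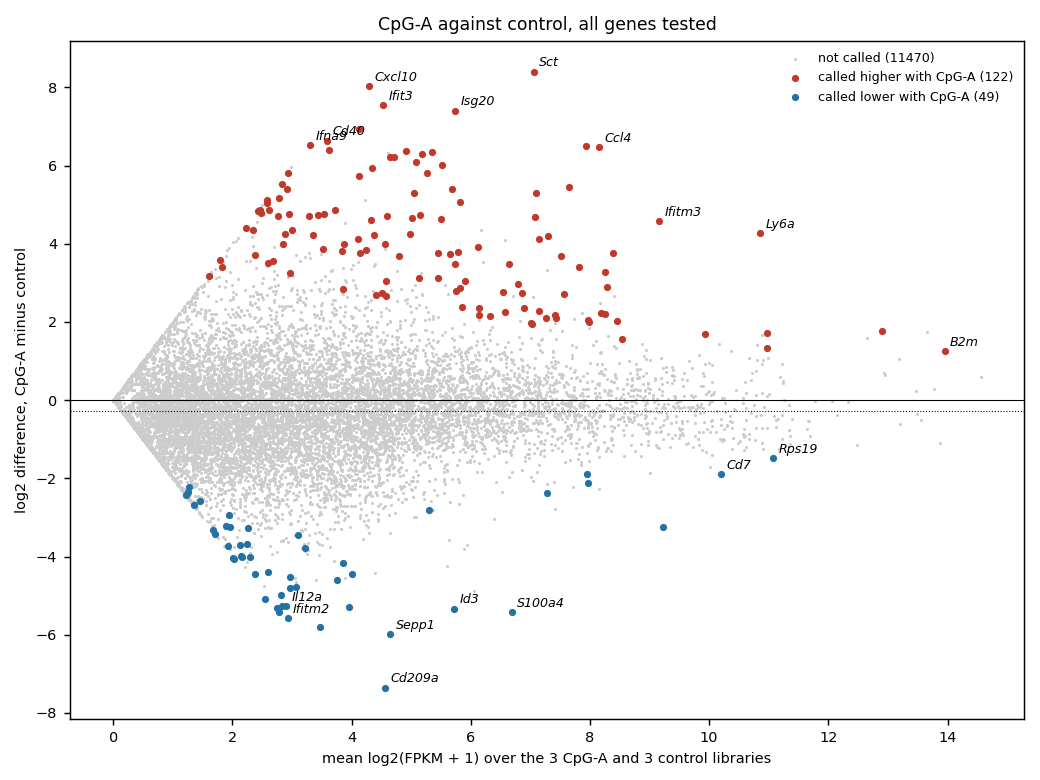
Each point is a gene tested, placed by its mean log2(FPKM + 1) over the 3 CpG-A and 3 control libraries (x axis) and by its log2 difference, CpG-A minus control (y axis). Red points are the 122 genes called higher, blue points the 49 called lower and grey points the others; the dotted line is the median of all tested genes, -0.27. The called rises reach 8.40 (Sct) and the called falls -7.35 (Cd209a), and many falls lie on the lower edge, where CpG-A libraries are near 0.

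Interferon ligands were present in CpG-A libraries and nearly absent from control, but their level differed by orders of magnitude between the CpG-A replicates. Ifnb1 (chromosome 4, 88522025 to 88522794, mm10, as are all coordinates of genes here), the gene of interferon beta, stood at 8054, 4.55 and 229 FPKM in CpG-A replicates 1, 2 and 3, against 3.23, 1.54 and 0.87 FPKM in control. The CpG-A libraries all lay above the control libraries, yet replicate 2 was close to them. Ifnb1 did not pass (log2 difference 6.32, SE 1.78, adjusted p = 0.104), but passed with the replicate block (adjusted p = 0.0235) or without CpG-A replicate 2 (0.00276).

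Most alpha interferons were likewise lowest in CpG-A replicate 2. Ifna9 (chromosome 4, 88591813 to 88592385) stood at 357, 22.5 and 99.1 FPKM with CpG-A and 0, 0.09 and 0 FPKM in control, and rose (log2 difference 6.52, SE 1.01, adjusted p = 0.00264). Ifna12 stood at 8.89, 5.92 and 24.2 FPKM with CpG-A, was listed at 0 in all 3 control libraries, and was called higher (adjusted p = 0.00882). These were the 2 calls among the 12 interferon genes tested, and both were lost without the libraries numbered 1. The values of Ifna11 were 322, 2.25 and 100.04 FPKM with CpG-A and 0.17, 0 and 0 FPKM in control (adjusted p = 0.0946). Ifna6 stood at 238, 6.59 and 135 FPKM with CpG-A, with 0 in each control library (adjusted p = 0.0643; 0.047 with the replicate block). In Ifna2 the CpG-A libraries read 237, 0 and 132 FPKM, again with 0 in control (adjusted p = 0.192, and 0.00492 without CpG-A replicate 2). Replicate 2 thus held the lowest of the CpG-A values in each of these genes, including a 0. Ifna4 was at 14.9, 4.46 and 56.7 FPKM with CpG-A and 0, 0.08 and 0 FPKM in control and missed the threshold (log2 difference 4.06, SE 0.98, adjusted p = 0.0559; 0.0287 with CpG-A replicate 2 left out and 0.0312 with CpG-B replicate 2 left out).

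The lambda interferons, type III ligands that act on a receptor of their own, were seen mainly in CpG-A replicate 1. Ifnl2 stood at 460.0, 1.7 and 18.7 FPKM with CpG-A and 0.27, 0 and 0 FPKM in control, and Ifnl3 at 48.1, 1.07 and 0 and 1.88, 0 and 0 FPKM; neither was called (adjusted p = 0.168 and 0.668). Across the list, the CpG-A library lowest in expression was replicate 2 for 11 of the 12 tested genes. Summed over the 17 interferon genes of the table, CpG-A libraries held 9814, 54.4 and 898.6 FPKM, against 5.73, 2.08 and 0.87 FPKM in control, so the highest CpG-A library was 180.3 times the lowest. Of the 12 tested, 10 lay below 1 FPKM in every control library and passed the expression filter only through CpG libraries, so the count of calls among them is a description. It was 10 without CpG-A replicate 2, 4 with the replicate block or without CpG-B replicate 2, and 0 without the libraries numbered 1. The alpha interferon genes are near-identical copies of one another, and how reads were shared among them is uncertain.

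**Figure D2:**
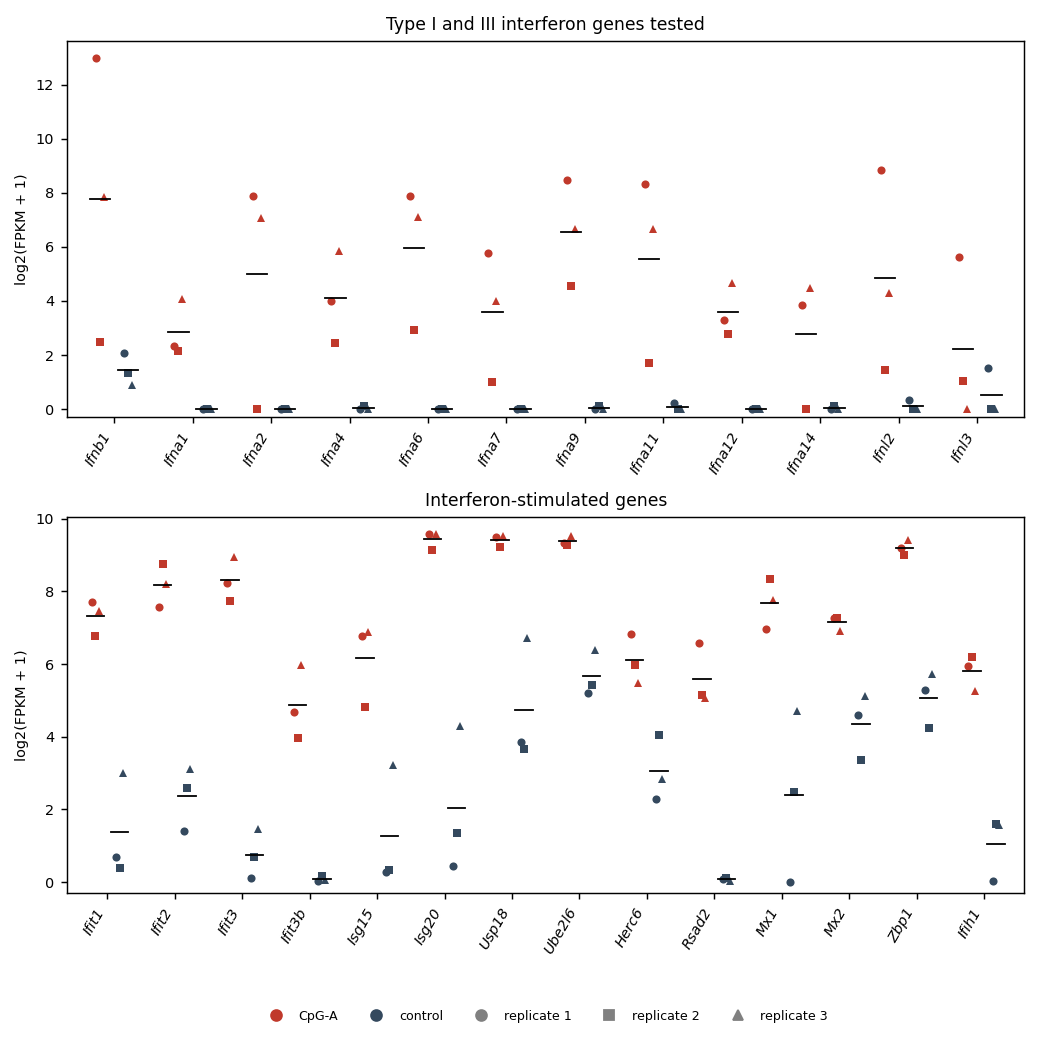
log2(FPKM + 1) (y axis) of the 12 interferon genes tested (upper panel) and of 14 interferon-stimulated genes called higher (lower panel) in each library; red is CpG-A and blue-grey control, symbols mark the replicate number and bars the group means. CpG-A replicate 2 (red squares) lies lowest for 11 of the 12 interferon genes, for example Ifnb1 at 4.55 FPKM against 8054 and 229 FPKM, while the interferon-stimulated genes of that library lie beside those of the other 2.

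Interferon-stimulated genes were far more even across the CpG-A replicates than the interferons were. Summed over the 12 genes of the IFIT and ISG15 system, CpG-A libraries held 3103, 2688 and 3447 FPKM, against 74.5, 109 and 300.5 FPKM in control. Over the 5 lists of such genes (the IFIT and ISG15 system, oligoadenylate synthetases, interferon-induced GTPases, nucleic acid sensors and other antiviral genes) 83 members were tested, of which 38 (45.8%) rose and 1 fell, against 1.05% and 0.421% of all genes tested. The median log2 difference of the 83 was 2.64, against -0.27 over all tested genes, and 79 were above 0. In the order of the lists, 2 of 11, 2 of 8, 3 of 18, 2 of 15 and 4 of 31 tested members lay below 1 FPKM in every control library. Such members passed the expression filter only through CpG libraries, so the share and the median are a description. Among the 38 that rose, the highest CpG-A library exceeded the lowest by a median factor of 1.83 and at most by 4.35, and replicate 2 was the lowest for 17. The test favours genes of small spread within groups, so these factors describe the called genes only. For the sums over all members of each list, called or not, the factor lay between 1.17 and 1.89, against 180.3 for the interferons. The number that rose lay between 35 and 42 with any 1 library left out, and was 47 with the replicate block, 29 without the libraries numbered 1 and 9 in a fit to the 6 libraries alone.

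The IFIT and ISG15 system had 9 of 11 tested members higher and none lower, with a median log2 difference of 4.79. Ifit1, Ifit2 and Ifit3 bind viral or unmodified RNA and its translation machinery. Ifit3 stood at 299, 213 and 488 FPKM with CpG-A and 0.09, 0.6 and 1.74 FPKM in control (log2 difference 7.55, SE 0.47, adjusted p = 1.15e-06), the smallest adjusted p of the genes named here. Every CpG-A library lay far above every control library. Isg20, a 3′ to 5′ exonuclease that degrades RNA, stood at 762, 567 and 762 FPKM with CpG-A and 0.35, 1.56 and 18.7 FPKM in control (log2 difference 7.40, SE 0.69, adjusted p = 3.75e-05). Control replicate 3 was the highest control for both genes. Isg15, a ubiquitin-like protein that is joined to other proteins, read 107, 27.1 and 118 FPKM with CpG-A and 0.21, 0.26 and 8.36 FPKM in control (log2 difference 4.88, SE 0.79, adjusted p = 0.00348), and the call was lost without the libraries numbered 1.

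The enzymes around ISG15 rose as well, except the activating enzyme. Ube2l6, the conjugating enzyme, stood at 643, 615 and 729.8 FPKM with CpG-A and 35.9, 42.1 and 82.5 FPKM in control (log2 difference 3.70, SE 0.38, adjusted p = 7.28e-05). Usp18, which removes ISG15 and dampens the interferon receptor, stood at 722, 592 and 738 FPKM with CpG-A and 13.3, 11.6 and 103 FPKM in control (log2 difference 4.68, SE 0.62, adjusted p = 0.000597; not called without the libraries numbered 1). Herc6, the mouse ligase for ISG15, rose by a log2 difference of 3.05 (adjusted p = 0.00978; 0.056 without CpG-A replicate 1 and 0.145 without the libraries numbered 1). Uba7, the enzyme that activates ISG15, stood at 25.9, 50 and 37.6 FPKM with CpG-A and 18.4, 32.4 and 65 FPKM in control (log2 difference 0.10, SE 0.61, adjusted p = 0.971), and its libraries overlapped.

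Promoter sequences were examined for the letters that interferon-activated factors bind, which played no part in the comparison. In windows of 300 bases (250 before and 50 after each annotated RefSeq start, build GRCm38.p6) the letters GAAANNGAA, a short form of the core of the interferon-stimulated response element, were searched on both strands. A match stood in 34 of 91 windows of genes called higher (37.4%), in 6 of 48 windows of genes called lower (12.5%), in 758 of 10273 windows of tested genes (7.38%) and in 2812 of all 32851 windows (8.56%). The windows covered 83 of the 122 genes called higher, 34 of the 49 called lower and 8099 of the 11641 tested. The remaining genes were not searched, so the shares do not describe all called genes. The letters GGNNTTTCC, a short form of the core of a kB site, stood in 14.3% of the windows of genes called higher, 8.33% of those of genes called lower and 5.82% of all windows. Windows of near-identical genes are not independent, and a match is a description of the letters and not a bound site. Windows of 7 genes are shown, 5 with large rises that differ in their matches and the Ifitm3 and Ifitm2 pair, which moved in opposite directions; capitals mark every match to GAAANNGAA on either strand, overlapping matches run together.
Ifit3 (chr19:34583279-34583578, plus strand): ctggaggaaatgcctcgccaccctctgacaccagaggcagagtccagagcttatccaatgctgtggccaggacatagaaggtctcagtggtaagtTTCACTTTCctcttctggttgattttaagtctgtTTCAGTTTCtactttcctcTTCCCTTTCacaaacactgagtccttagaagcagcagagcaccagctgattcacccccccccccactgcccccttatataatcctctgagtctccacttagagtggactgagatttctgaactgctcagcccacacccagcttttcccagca
Cxcl10 (chr5:92348840-92349139, minus strand): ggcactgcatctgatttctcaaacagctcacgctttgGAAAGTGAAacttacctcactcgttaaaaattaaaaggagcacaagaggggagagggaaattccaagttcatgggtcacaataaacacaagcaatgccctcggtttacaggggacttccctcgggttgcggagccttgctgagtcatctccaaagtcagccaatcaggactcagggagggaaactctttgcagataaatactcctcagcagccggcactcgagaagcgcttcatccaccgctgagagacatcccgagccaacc
Isg15 (chr4:156200769-156201068, minus strand): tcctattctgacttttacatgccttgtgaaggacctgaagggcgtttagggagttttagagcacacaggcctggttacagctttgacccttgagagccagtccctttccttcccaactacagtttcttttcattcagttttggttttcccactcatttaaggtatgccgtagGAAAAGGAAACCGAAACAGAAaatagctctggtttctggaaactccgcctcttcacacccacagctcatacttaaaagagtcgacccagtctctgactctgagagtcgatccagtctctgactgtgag
Ifna9 (chr4:88592336-88592635, minus strand): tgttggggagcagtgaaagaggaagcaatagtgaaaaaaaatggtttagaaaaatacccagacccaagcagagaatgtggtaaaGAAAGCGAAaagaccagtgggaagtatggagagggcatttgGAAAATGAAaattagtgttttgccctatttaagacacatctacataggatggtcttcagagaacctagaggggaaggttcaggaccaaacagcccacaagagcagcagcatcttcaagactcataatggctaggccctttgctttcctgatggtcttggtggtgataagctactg
Sct (chr7:141279084-141279383, minus strand): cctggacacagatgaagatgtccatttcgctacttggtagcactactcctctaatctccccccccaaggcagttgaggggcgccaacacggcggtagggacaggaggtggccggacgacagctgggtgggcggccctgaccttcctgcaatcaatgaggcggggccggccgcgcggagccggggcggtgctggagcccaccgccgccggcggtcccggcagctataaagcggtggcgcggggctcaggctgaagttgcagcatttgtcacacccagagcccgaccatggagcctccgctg
Ifitm3 (chr7:141010695-141010994, minus strand): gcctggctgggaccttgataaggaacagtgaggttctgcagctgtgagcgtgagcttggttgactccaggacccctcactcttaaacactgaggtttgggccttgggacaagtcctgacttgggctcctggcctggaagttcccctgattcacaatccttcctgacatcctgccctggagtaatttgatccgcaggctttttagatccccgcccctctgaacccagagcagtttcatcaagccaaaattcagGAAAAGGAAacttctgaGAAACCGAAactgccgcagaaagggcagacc
Ifitm2 (chr7:140955912-140956211, minus strand): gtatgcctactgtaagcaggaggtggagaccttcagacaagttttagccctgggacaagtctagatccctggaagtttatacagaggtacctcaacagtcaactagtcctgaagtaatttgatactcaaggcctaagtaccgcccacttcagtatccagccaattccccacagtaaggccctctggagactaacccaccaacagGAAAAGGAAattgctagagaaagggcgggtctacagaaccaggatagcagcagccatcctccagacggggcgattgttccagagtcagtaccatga

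Counted from the annotated start as 0, the matches begin at -155, -121 and -102 before Ifit3, at -213 before Cxcl10 and at -166 and -125 before Ifna9. Isg15 holds 3 overlapping matches at -78, -72 and -66. Ifitm3 holds its matches at 2 and 19, just after the start, and Ifitm2 a match at -46. The Sct window, before the gene with the largest rise, holds none.

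In the list of oligoadenylate synthetases, which sense double-stranded RNA and make short adenylate chains, 3 of 8 tested members rose (median log2 difference 3.39), and with the replicate block Oas1a was called too (adjusted p = 0.0327). Oas3 stood at 49.8, 14.2 and 45.5 FPKM with CpG-A and 0.13, 0.05 and 0.21 FPKM in control (log2 difference 4.87, SE 0.63, adjusted p = 0.000504). Oasl1, which in mice limits the translation of Irf7, stood at 151, 114 and 148 FPKM with CpG-A and 5.28, 3.17 and 13.6 FPKM in control (log2 difference 4.24, SE 0.48, adjusted p = 0.00019). Oasl2 rose by 3.48, adjusted p = 0.00143. The libraries of these 3 did not overlap between the groups. Oas2 did not pass and its libraries overlapped, at 75.5, 40.3 and 22.2 FPKM with CpG-A and 57.2, 23.2 and 19.8 FPKM in control.

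Of 18 interferon-induced GTPases, 10 rose and none fell, with a median log2 difference of 3.002; 13 rose with the replicate block and 1 in a fit to the 6 libraries alone. Mx1, a dynamin-like GTPase, stood at 124, 324 and 215 FPKM with CpG-A and 0, 4.55 and 25.1 FPKM in control (log2 difference 5.30, SE 0.85, adjusted p = 0.00329), highest in replicate 2, the library with the least interferon transcript. Iigp1, an immunity-related GTPase that attacks the vacuoles of intracellular pathogens, stood at 181, 289 and 188 FPKM with CpG-A and 2.21, 0.28 and 5.02 FPKM in control (log2 difference 6.21, SE 0.55, adjusted p = 2.61e-05). It had the largest rise of the group. Its relatives Igtp (4.64, adjusted p = 0.0138; 0.0721 without CpG-A replicate 1), Irgm1 (2.28, adjusted p = 0.00288) and Tgtp1 (3.68, adjusted p = 0.00158) rose too, as did Mx2 and the guanylate-binding proteins Gbp4, Gbp6 and Gbp10. Gvin1 rose by 2.37, adjusted p = 0.0431, a call lost without any 1 of 9 libraries (all but CpG-A replicate 1, CpG-B replicate 3 and CpG-C replicate 1; adjusted p up to 0.143). Gbp10 lost its call without any 1 of the 3 CpG-A replicates or control replicates 1 and 2 (up to 0.0914). Without the libraries numbered 1 Mx2, Gbp4 and Gvin1 were not called (adjusted p = 0.0796, 0.0599 and 0.0999). Gbp and Tgtp genes have close copies, among which the sharing of reads is uncertain.

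Sensors of nucleic acids rose in 6 of 15 tested members (median log2 difference 1.89) and the number called was 6 with any 1 library left out. Zbp1, which binds Z-form nucleic acid, stood at 583, 509 and 682 FPKM with CpG-A and 37.8, 17.8 and 51.7 FPKM in control (log2 difference 4.12, SE 0.38, adjusted p = 3.75e-05). Ifih1, the double-stranded RNA sensor MDA5, stood at 60.9, 72.8 and 37.1 FPKM with CpG-A and 0.02, 2.02 and 1.96 FPKM in control (log2 difference 4.74, SE 0.60, adjusted p = 0.000425). Dhx58, the related LGP2, rose by 3.81, adjusted p = 0.00679, and not without the libraries numbered 1. The PYHIN genes Ifi204, Ifi205 and Mnda, some of which bind DNA and which have close copies, rose by log2 differences of 2.71, 5.39 and 3.78. The sensors of RNA and DNA that these cells use at rest were not called. Tlr7 stood at 191, 352 and 175 FPKM with CpG-A and 169, 119.6 and 143 FPKM in control (log2 difference 0.67, SE 0.37, adjusted p = 0.463). Tmem173 (STING) had a log2 difference of -0.36, adjusted p = 0.847.

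Other antiviral genes had 10 higher and 1 lower of 31 tested, with a median log2 difference of 1.85; with the replicate block 15 were higher. Rsad2, viperin, which makes a chain-terminating nucleotide, stood at 94.9, 34.2 and 32.5 FPKM with CpG-A and 0.06, 0.08 and 0.03 FPKM in control (log2 difference 5.52, SE 0.60, adjusted p = 0.000125). Phf11d stood at 578, 236 and 355 FPKM with CpG-A and 0.37, 4.06 and 12.4 FPKM in control (log2 difference 6.33, SE 0.69, adjusted p = 0.000136). Its near copies Phf11b and Phf11a rose by 3.76 and 5.30, with the sharing of reads among them uncertain. Ifi44, Ms4a4c, Rtp4 and Xaf1 rose by log2 differences between 2.37 and 4.65. Parp12 (3.17, adjusted p = 0.0303) lost its call without any 1 of 10 libraries (all but CpG-A replicate 1 and CpG-C replicate 1; adjusted p up to 0.114). Ifi35 (1.99, adjusted p = 0.0322) lost it without any 1 of 7 libraries, namely CpG-A 1 and 3, CpG-B 1 and 3, CpG-C 3 and control 1 and 2 (up to 0.154). Neither was called without the libraries numbered 1 (0.0522 and 0.236). The most abundant member, Ifi27l2a, did not pass, but did with the replicate block (adjusted p = 0.0371), at 11674, 36941 and 31154 FPKM with CpG-A and 5840.5, 3955 and 15285 FPKM in control (log2 difference 1.75, SE 0.57, adjusted p = 0.176).

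Neighbouring genes of the Ifitm family, membrane proteins that block virus fusion, moved in opposite directions. Ifitm3 (chromosome 7, 141009590 to 141010744) stood at 2926, 2866 and 2577 FPKM with CpG-A and 403, 19.2 and 196 FPKM in control (log2 difference 4.57, SE 0.73, adjusted p = 0.00329). Ifitm2 (chromosome 7, 140954839 to 140955961) stood at 0.09, 0.23 and 0 FPKM with CpG-A and 116, 25.1 and 46.3 FPKM in control (log2 difference -5.57, SE 0.99, adjusted p = 0.0075). All CpG-A libraries were above all controls for Ifitm3 and below them for Ifitm2, and both calls were made with any 1 library left out; that of Ifitm2 was lost without the libraries numbered 1. Ifi27, also known as an interferon-induced gene, was lower, at 0, 0.51 and 1.19 FPKM with CpG-A and 27.2, 51.8 and 46.2 FPKM in control (log2 difference -4.79, SE 0.89, adjusted p = 0.00933). The family members resemble each other, and how reads that match several of them were assigned is uncertain.

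Few genes that carry the signals were called. Irf7, the factor that drives interferon genes in these cells, was the only one of 7 interferon regulatory factors called: it stood at 949, 530.4 and 1692 FPKM with CpG-A and 91.7, 35.4 and 283 FPKM in control (log2 difference 3.27, SE 0.62, adjusted p = 0.0107; 0.0606 without CpG-A replicate 3 and 0.188 without the libraries numbered 1). None of 12 genes of interferon receptors and JAK-STAT signalling was called (median 0.36), and 2 were with the replicate block. Stat2, 1 of these 2, had a log2 difference of 1.69, adjusted p = 0.0891. Ifnar1, the receptor chain, had -0.30, adjusted p = 0.887. In the list of TLR9 sensing and MyD88 signalling 1 of 22 rose (median 0.02, against -0.27 over all genes). That gene was Spp1, osteopontin, at 36.7, 157 and 243 FPKM with CpG-A and 0.03, 0.19 and 1 FPKM in control (log2 difference 6.39, SE 0.92, adjusted p = 0.00138). Tlr9, the receptor itself, was near the floor in both groups, at 0.44, 2.76 and 8.95 FPKM with CpG-A and 5.87, 1.96 and 6.41 FPKM in control (log2 difference -0.49, SE 0.95, adjusted p = 0.881).

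In the NF-kB pathway 2 of 16 rose (median 1.15) and 14 were above 0. Relb, a subunit of the non-canonical arm, stood at 41.1, 54.9 and 24.1 FPKM with CpG-A and 7.09, 4.95 and 2.26 FPKM in control (log2 difference 2.85, SE 0.66, adjusted p = 0.0455). Map3k8, the kinase that links NF-kB to ERK, stood at 240.0, 153 and 108 FPKM with CpG-A and 48.2, 20.9 and 27.1 FPKM in control (log2 difference 2.35, SE 0.49, adjusted p = 0.0226). Both calls rested on single libraries. Relb was lost without any 1 of 10 libraries (all but CpG-C replicate 1 and control replicate 1; adjusted p up to 0.137) and Map3k8 without any 1 of CpG-A 1 and 2 and control 2 and 3 (up to 0.114), and neither was called without the libraries numbered 1 (0.105 and 0.0661). Of the feedback inhibitors 1 of 15 rose (median 0.04): Socs1, which blocks JAK kinases, stood at 23.1, 13.8 and 65.8 FPKM with CpG-A and 0, 0.04 and 0 FPKM in control (log2 difference 4.83, SE 1.02, adjusted p = 0.0239; lost without any 1 of CpG-A 1 and 3 and the 3 control libraries, up to 0.108, and 0.0545 without the libraries numbered 1). The inhibitors Socs3 and Zfp36 had log2 differences of -0.41, adjusted p = 0.907 and 0.41, adjusted p = 0.88.

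**Figure D3:**
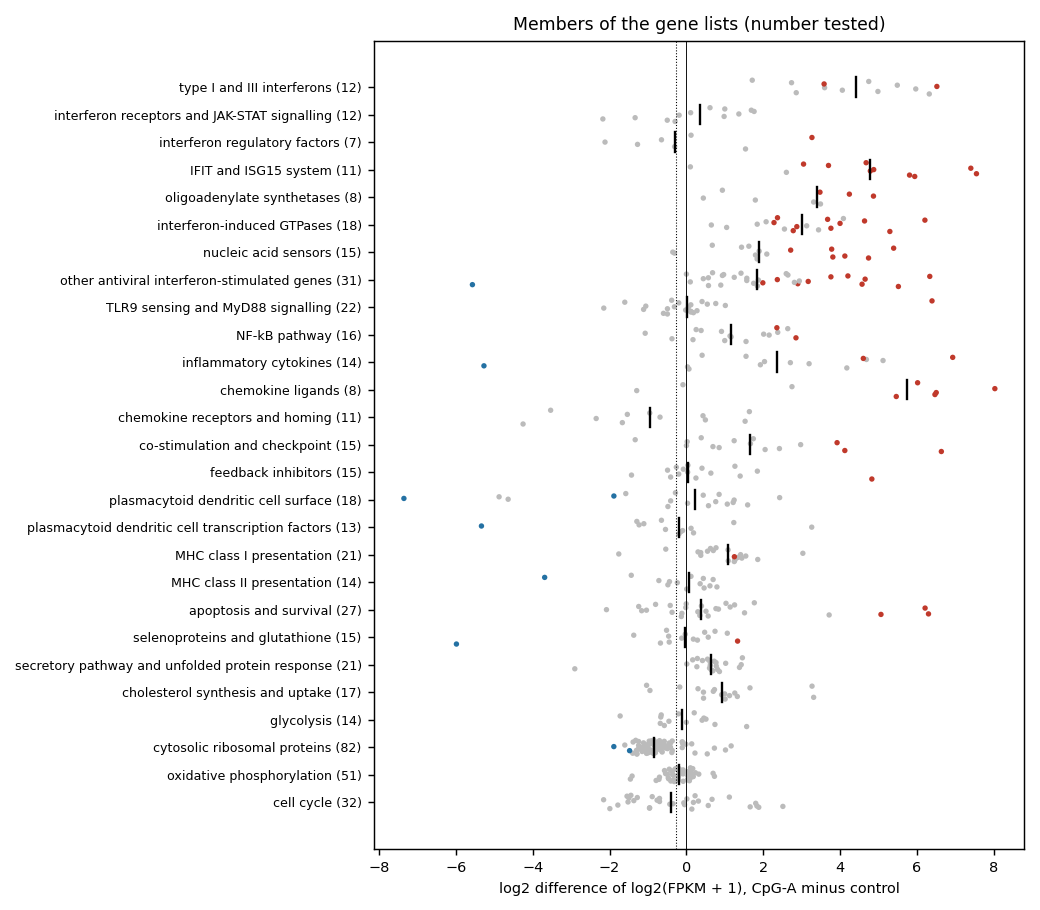
Each point is a tested member of a gene list, placed by its log2 difference of log2(FPKM + 1), CpG-A minus control (x axis); the number tested is in brackets, red marks members called higher, blue called lower and grey not called, black bars are list medians, and the dotted line is the median of all genes, -0.27. The IFIT and ISG15 system (median 4.79), interferons (4.40, with 5 of the 12 listed at 0 in control) and chemokine ligands (5.74) lie farthest to the right and cytosolic ribosomal proteins (-0.86) and chemokine receptors (-0.96) farthest to the left. Of the 8 chemokine ligands tested, 3 lay below 1 FPKM in every control library.

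Chemokine ligands were among the most abundant transcripts that rose, with 5 of 8 tested members higher and a median log2 difference of 5.74. Of all tested genes 1.05% were called higher. However, 3 of the 8 lay below 1 FPKM in every control library and passed the expression filter only through CpG libraries. The count and the median are therefore a description. Cxcl10, which attracts T cells and natural killer cells through Cxcr3, stood at 332, 205 and 465 FPKM with CpG-A and 0.13, 0.12 and 0.42 FPKM in control (log2 difference 8.03, SE 0.67, adjusted p = 2.26e-05). Ccl4, an inflammatory chemokine, stood at 8959.9, 1917 and 1133 FPKM with CpG-A and 39.8, 21.6 and 29.3 FPKM in control (log2 difference 6.47, SE 0.64, adjusted p = 5.23e-05). The related Ccl3 stood at 7023, 671 and 508 FPKM with CpG-A and 40.9, 30.2 and 20.4 FPKM in control (log2 difference 5.46, SE 0.79, adjusted p = 0.00147). For Ccl3 and Ccl4 replicate 1 was the highest CpG-A library by a wide margin. It was the highest for Ccl5 too, at 7538, 1238 and 1333 FPKM with CpG-A and 2.47, 19.3 and 236 FPKM in control (log2 difference 6.50, SE 1.31, adjusted p = 0.0182), but control replicate 3 also held much of it, and the call was lost without CpG-A replicate 1 (0.106) or control replicate 1 (0.0815) or 2 (0.0686), and without the libraries numbered 1 (0.154). Xcl1, which attracts cross-presenting dendritic cells, ran the other way among the CpG-A libraries, at 33, 1166 and 1261 FPKM with CpG-A and 0, 14.9 and 10.6 FPKM in control (log2 difference 6.02, SE 1.41, adjusted p = 0.0473); its call was lost without any 1 of 10 libraries (all but CpG-A replicate 1 and CpG-B replicate 1; up to 0.169) and held with the replicate block (7.74e-05).

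None of 11 chemokine receptors and homing genes was called (median -0.96), and 2 fell with the replicate block. Ccr2, the receptor through which monocytes leave the marrow, stood at 0.02, 52.8 and 23.7 FPKM with CpG-A and 108, 479.5 and 178 FPKM in control (log2 difference -4.25, SE 1.15, adjusted p = 0.092; 0.0423 with the replicate block), with no overlap. Itgb7, an integrin chain for homing to gut, had -3.53, adjusted p = 0.0642 (0.0371 with the block), and Ccr9, the gut homing receptor of these cells, 0.49, adjusted p = 0.669. Ccr7, which guides mature dendritic cells to lymph nodes, overlapped between the groups, at 31.1, 2.28 and 73.3 FPKM with CpG-A and 18.5, 0.46 and 10.49 FPKM in control (log2 difference 1.53, SE 1.06, adjusted p = 0.584).

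Of 14 cytokine genes tested, 13 were above 0 (median 2.37). Called higher were 2 and called lower 1, Il12a, against 1.05% and 0.421% of all tested genes, and 3 were higher with the replicate block. The same limit holds here, as 6 of the 14 lay below 1 FPKM in every control library. Lta, lymphotoxin alpha, stood at 467, 45.5 and 334 FPKM with CpG-A and 0.24, 0.49 and 1.17 FPKM in control (log2 difference 6.93, SE 0.96, adjusted p = 0.000974). Tnf stood at 209.6, 86.3 and 51.2 FPKM with CpG-A and 26.8, 0.21 and 0.98 FPKM in control (log2 difference 4.60, SE 1.01, adjusted p = 0.0321), a call lost without any 1 of CpG-A 1 and 2, CpG-B 2 and control 2 and 3 (up to 0.154). Il12a, the p35 subunit of interleukin 12, was lower, at 0, 0.21 and 0.44 FPKM with CpG-A and 101, 22.9 and 40.1 FPKM in control (log2 difference -5.27, SE 1.00, adjusted p = 0.0114; 0.064 without control replicate 1 and 0.0635 without the libraries numbered 1). Its partner Il12b, the p40 subunit, was seen in 1 CpG-A library, at 0, 0.18 and 52.6 FPKM, with 0, 0.12 and 0.03 FPKM in control (log2 difference 1.93, SE 1.14, adjusted p = 0.505). Il6 stood at 17.7, 25.9 and 18.4 FPKM with CpG-A and 0, 0.2 and 0.38 FPKM in control and did not pass (log2 difference 4.18, SE 1.23, adjusted p = 0.125), although its CpG-A libraries were close together; without CpG-C replicate 1 or 2 it passed (0.0131 and 0.0228), since all groups share the estimate of spread. Ebi3, the shared subunit of interleukins 27 and 35, missed narrowly, at 595, 30.2 and 71.3 FPKM with CpG-A and 0.29, 0.78 and 13 FPKM in control (log2 difference 5.12, SE 1.22, adjusted p = 0.0528), and passed with the replicate block (0.0206).

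Of 15 co-stimulation and checkpoint genes 3 rose (median 1.67), and 5 of the 15 lay below 1 FPKM in every control library. Cd40, the receptor for help from T cells, stood at 187, 70.1 and 126 FPKM with CpG-A and 0.11, 0.32 and 0.18 FPKM in control (log2 difference 6.64, SE 0.56, adjusted p = 2.26e-05), and was below 1 FPKM in every control library. Cd86, a ligand of Cd28, stood at 112, 51.3 and 62.8 FPKM with CpG-A and 0.05, 5.86 and 8.84 FPKM in control (log2 difference 4.12, SE 0.74, adjusted p = 0.0075; not called without the libraries numbered 1). Cd69, which holds cells in tissue, stood at 496, 155 and 255 FPKM with CpG-A and 56.6, 1.4 and 40.2 FPKM in control (log2 difference 3.92, SE 0.88, adjusted p = 0.036; lost without any 1 of 6 libraries, CpG-A replicates 1 and 3, the CpG-B replicates and CpG-C replicate 3, up to 0.16, and 0.131 without the libraries numbered 1). Cd274, the checkpoint ligand PD-L1, stood at 38, 12.6 and 17.8 FPKM with CpG-A and 4.99, 3.31 and 1.51 FPKM in control and missed the threshold (log2 difference 2.42, SE 0.63, adjusted p = 0.0798; 0.0458 with the replicate block).

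Antigen presentation is given for class I and class II. In MHC class I presentation 19 of 21 members were above 0 (median 1.09) and 10 had no overlap between groups in the higher direction, as had 5.78% of all tested genes, but 1 was called, B2m, the light chain of class I molecules. B2m stood at 28096, 23102 and 22525 FPKM with CpG-A and 13513, 7907 and 10196 FPKM in control (log2 difference 1.25, SE 0.23, adjusted p = 0.00994; 0.0618 without CpG-A replicate 1 and 0.0743 without control replicate 2, and 0.103 without the libraries numbered 1). With the replicate block 8 of the 21 were called higher. Tap1, a subunit of the peptide transporter, stood at 127, 139 and 139.5 FPKM with CpG-A and 39.7, 38 and 63 FPKM in control (log2 difference 1.55, SE 0.39, adjusted p = 0.0647; 0.0405 with the replicate block). Nlrc5, the class I transactivator, had a log2 difference of 3.03, adjusted p = 0.0677. In MHC class II presentation none of 14 rose (median 0.06). H2-Ab1, a class II beta chain, stood at 2073, 1605 and 1799 FPKM with CpG-A and 766, 1663 and 1805 FPKM in control (log2 difference 0.46, SE 0.49, adjusted p = 0.743), with overlap. Marchf1, the ubiquitin ligase that removes class II molecules and Cd86 from the surface of resting dendritic cells, was the 1 that fell, at 0.01, 0.96 and 0.16 FPKM with CpG-A and 17.6, 24.3 and 9.47 FPKM in control (log2 difference -3.69, SE 0.77, adjusted p = 0.0221; lost without any 1 of CpG-A 1 and 3 and control 1 and 2, up to 0.0971, and 0.154 without the libraries numbered 1).

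Among 27 genes of apoptosis and survival 3 rose (median 0.39). Bcl2a1d, a survival protein of the Bcl2 family, stood at 1052, 187 and 171 FPKM with CpG-A and 3.66, 2.57 and 3.18 FPKM in control (log2 difference 6.30, SE 0.69, adjusted p = 0.00014). Its near-identical copy Bcl2a1b stood at 1026, 112 and 300.1 FPKM with CpG-A and 32.5, 2.48 and 6.98 FPKM in control (log2 difference 5.06, SE 0.84, adjusted p = 0.00432), with the split of reads between them uncertain. Casp4, the inflammatory caspase that senses cytosolic lipopolysaccharide, stood at 385, 278 and 108 FPKM with CpG-A and 0.07, 0.44 and 17.6 FPKM in control (log2 difference 6.21, SE 0.85, adjusted p = 0.000881; not called without the libraries numbered 1). Bmf, which promotes cell death, was near 0 in every CpG-A library, at 0.01, 0.03 and 0.01 FPKM, against 3.39, 3.39 and 3.13 FPKM in control, and missed the threshold (log2 difference -2.08, SE 0.53, adjusted p = 0.0712).

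Siglech, Tcf4 and Irf8, defining genes of plasmacytoid dendritic cells, were expressed in every library of both groups and were not called. Siglech, the sialic acid-binding receptor that marks these cells in mice, stood at 1211, 2522 and 2319 FPKM with CpG-A and 2144, 3241 and 2777 FPKM in control (log2 difference -0.48, SE 0.41, adjusted p = 0.658). Tcf4, the E protein that sets the lineage, stood at 45.4, 103 and 80.3 FPKM with CpG-A and 36.7, 121 and 127 FPKM in control (log2 difference -0.20, SE 0.60, adjusted p = 0.93), and Irf8 had 0.12, adjusted p = 0.959; both overlapped. Of 18 surface genes 2 fell, or 3 with the replicate block or without the libraries numbered 1 (median 0.23). Cd209a (chromosome 8, 3743395 to 3748984), a C-type lectin, stood at 0.06, 0.82 and 2.22 FPKM with CpG-A and 182, 468 and 316 FPKM in control (log2 difference -7.35, SE 0.96, adjusted p = 0.000554), the largest fall named. Cd7, an immunoglobulin family receptor, stayed abundant, at 484, 574 and 828 FPKM with CpG-A and 3085, 1861 and 2039 FPKM in control (log2 difference -1.89, SE 0.36, adjusted p = 0.0111; 0.0579 without CpG-A replicate 1 and 0.0583 without control replicate 1, and 0.0765 without the libraries numbered 1). Clec12a, an inhibitory lectin, had no overlap but missed the threshold, at 0.23, 52.2 and 27.1 FPKM with CpG-A and 177, 637 and 411 FPKM in control (log2 difference -4.88, SE 1.17, adjusted p = 0.0537), and passed with the replicate block (0.00649) and without the libraries numbered 1 (0.0342), as did Cd209d without those libraries (0.00702).

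Sums over markers listed for conventional dendritic cells and for B and plasma cells were lower with CpG-A. This did not hold for all other cells. The sum for progenitors, led by Ly6a, was 6411 to 11065 FPKM with CpG-A and 98.5 to 1960 FPKM in control. That for monocytes and macrophages, given below, was higher too. The 12 markers of conventional dendritic cells summed to 206 to 314 FPKM with CpG-A and 437 to 603 FPKM in control, with Xcr1 listed at 0. Flt3, Clec9a, Cd8a and Sirpa led this sum, and 4 of the 12 lay below 1 FPKM in all 6 libraries. Cd8a and Zbtb46 also stand on the lists of plasmacytoid dendritic cell genes, so the sum is not specific to other cells. The 11 of B and plasma cells summed to 16.7 to 36.1 FPKM with CpG-A and 79.3 to 119 FPKM in control, with Pax5 and Vpreb3 at 0. No marker of either list was called, and their part in the falls was not tested.

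Of 13 transcription factors of the lineage 1 fell (median -0.20). Id3, which binds E proteins and keeps them from DNA, stood at 0.31, 8.65 and 43.9 FPKM with CpG-A and 655, 269.7 and 209 FPKM in control (log2 difference -5.34, SE 1.197, adjusted p = 0.0368; lost without any 1 of 8 libraries, up to 0.15, and kept without CpG-A 3, CpG-B 1, CpG-C 1 or CpG-C 2, and 0.0999 without the libraries numbered 1). Its relative Id2 leaned the other way, at 214, 75.1 and 82.7 FPKM with CpG-A and 47.6, 1.9 and 9.99 FPKM in control, and missed the threshold (log2 difference 3.26, SE 0.79, adjusted p = 0.0559), but passed with the replicate block (0.00984) and without the libraries numbered 1 (0.0273).

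Several of the largest rises lay outside the immune lists. Sct (gene 20287), the hormone secretin, stood at 2050.1, 2007 and 3561 FPKM with CpG-A and 0.69, 2.03 and 72.7 FPKM in control (log2 difference 8.40, SE 0.96, adjusted p = 0.000195), with control replicate 3 the highest control. Hsd11b1 (chromosome 1, 193221640 to 193281352), the enzyme that regenerates active glucocorticoid, stood at 628, 159.7 and 204 FPKM with CpG-A and 0.39, 2.53 and 6.53 FPKM in control (log2 difference 6.37, SE 0.61, adjusted p = 4.67e-05). Rgcc, a regulator of the cell cycle, stood at 233, 46 and 16.2 FPKM with CpG-A and 0.05, 0 and 0 FPKM in control (log2 difference 5.82, SE 1.13, adjusted p = 0.0133; 0.0821 without CpG-A replicate 1). Pydc4 and Ifi202b, of the same gene family as Ifi204 and both with close copies, rose by log2 differences of 5.74 and 5.39. Sct and Hsd11b1 kept their calls with any 1 library left out, and Hsd11b1 also in a fit to the 6 libraries alone.

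The largest falls mostly went to the floor. After Cd209a, Sepp1, which carries selenium in plasma, stood at 0.09, 13.6 and 0.97 FPKM with CpG-A and 186, 327 and 129 FPKM in control (log2 difference -5.99, SE 1.11, adjusted p = 0.00933; 0.0566 without control replicate 2). S100a4, a calcium-binding protein of motile cells, stood at 0.24, 115 and 26 FPKM with CpG-A and 749, 447 and 911 FPKM in control (log2 difference -5.42, SE 1.197, adjusted p = 0.033; lost without any 1 of CpG-A 1 and 3, CpG-B 2 and 3 and the 3 control libraries, up to 0.1). The CpG-A libraries were uneven for both, replicate 2 being highest. Cd244, an activating and inhibitory receptor of the SLAM family, was near 0 with CpG-A and even in control, at 0.03, 0.13 and 0.06 FPKM with CpG-A and 40.4, 41.2 and 43.3 FPKM in control (log2 difference -5.31, SE 0.88, adjusted p = 0.00426). Cd1d1, which presents lipids to natural killer T cells, stood at 0.02, 0.3 and 0.04 FPKM with CpG-A and 31, 24.6 and 16.2 FPKM in control (log2 difference -4.44, SE 0.74, adjusted p = 0.00469). Lax1, a membrane adaptor that limits antigen receptor signals, was listed at 0 in all CpG-A libraries, against 27.8, 12.5 and 10.2 FPKM in control (adjusted p = 0.00871). Mzt2, a partner of the gamma-tubulin complex, was also listed at 0 with CpG-A, against 18.7, 10.8 and 19.2 FPKM in control (adjusted p = 0.018; lost without any 1 of CpG-A 3 and control 1 and 3, up to 0.0653).

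Genes of metabolism and of tubulin were also among the 25. Pstk, the kinase needed to make selenocysteine transfer RNA, stood at 0.5, 0.17 and 0.11 FPKM with CpG-A and 63.3, 82.8 and 10.4 FPKM in control (log2 difference -4.98, SE 0.86, adjusted p = 0.00635). Eci1, a mitochondrial enzyme of fatty acid oxidation, stood at 0.05, 2.48 and 0.13 FPKM with CpG-A and 53.7, 61.4 and 23.4 FPKM in control (log2 difference -4.77, SE 0.93, adjusted p = 0.0133). Acox3, a peroxisomal oxidase, stood at 0.72, 0.09 and 1.31 FPKM with CpG-A and 18.1, 47.2 and 54.6 FPKM in control (log2 difference -4.51, SE 0.93, adjusted p = 0.021). Each of these last 2 calls was lost without any 1 of 4 libraries, for Eci1 CpG-A replicates 1 and 3 and control replicates 1 and 2 (up to 0.0756) and for Acox3 CpG-A replicates 1 and 2 and control replicates 2 and 3 (up to 0.0827). Stmn1, which destabilises microtubules, stood at 2.31, 0.56 and 6.83 FPKM with CpG-A and 271, 37.3 and 39.6 FPKM in control (log2 difference -4.45, SE 0.86, adjusted p = 0.0124; 0.0543 without CpG-A replicate 2 and 0.0581 without control replicate 1). The falls called with any 1 library left out were Cd209a, Ifitm2, Cd244, Ifi27, Pstk, Cd1d1, Abhd14b and Lax1, and without the libraries numbered 1 only Cd209a, Ifi27, Cd1d1, Eci1 and Tmem223 of the 25 were called.

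**Figure D4:**
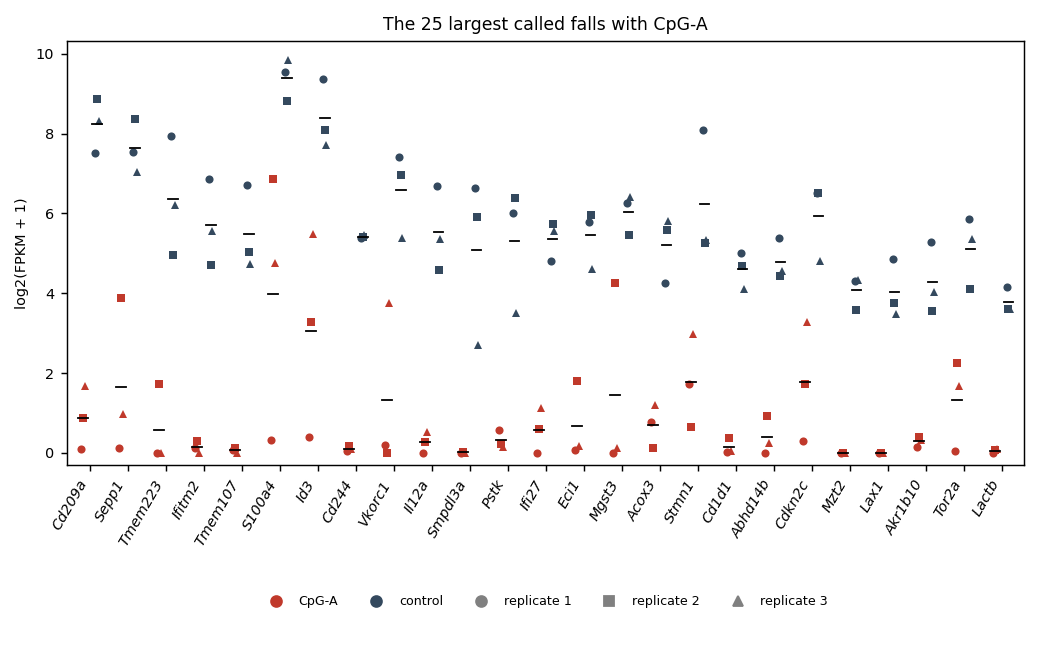
log2(FPKM + 1) (y axis) of the 25 largest named falls in each library, in order of their log2 difference; red is CpG-A and blue-grey control, symbols mark the replicate number and bars the group means. Most CpG-A points lie near 0, as for Cd244 at 0.03, 0.13 and 0.06 FPKM against 40.4, 41.2 and 43.3 FPKM in control, while single CpG-A libraries stay up for Sepp1, S100a4, Id3 and Mgst3.

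Among genes of the general machinery of the cell few were called, although ribosomal protein transcripts stood lower as a list. Of 82 cytosolic ribosomal proteins 2 fell, Rps19 and Rpl12. Rps19 stood at 1081, 1507 and 1317 FPKM with CpG-A and 4136, 3564 and 3159.9 FPKM in control (log2 difference -1.48, SE 0.31, adjusted p = 0.0244). Rpl12 stood at 83.9, 151 and 164 FPKM with CpG-A and 504, 449 and 475 FPKM in control (log2 difference -1.89, SE 0.45, adjusted p = 0.0494). The list's median was -0.86, against -0.27 over all genes, 76 of the 82 were below 0 and 55 did not overlap in the lower direction, as did 11% of all tested genes. Their sum was 61819 to 81436 FPKM with CpG-A and 121598 to 135398 FPKM in control. With the replicate block 9 fell and 1 rose, and without the libraries numbered 1 none was called. With median-of-ratios scaling, where 71 members were below 0 and the median was -0.64 against -0.11 over all genes, none of the 82 was called lower. No call remained for Rps19 without any 1 of CpG-A 1 and 3 and control 1 and 2, or for Rpl12 without any 1 of 9 libraries (all but CpG-B replicate 2 and CpG-C replicates 1 and 3). None was called among 51 genes of oxidative phosphorylation (median -0.18), 14 of glycolysis (-0.11), 32 of the cell cycle (-0.39), 21 of the secretory pathway and unfolded protein response (0.65) or 17 of cholesterol synthesis and uptake (0.92). In the secretory list 20 of 21 were above 0. With the replicate block Hspa5, the chaperone BiP, was called higher in that list (adjusted p = 0.0308), and Fdps and Mvd, enzymes of cholesterol synthesis, in theirs (0.0453 and 0.0423). Of the selenoproteins and glutathione genes 1 of 15 rose and 1 fell (median -0.03). Sepw1, a small selenoprotein, stood at 3569, 3195 and 2834 FPKM with CpG-A and 1104, 1139 and 1609 FPKM in control (log2 difference 1.33, SE 0.25, adjusted p = 0.00958; 0.0503 without CpG-A replicate 1 and 0.0578 without control replicate 2, and 0.165 without the libraries numbered 1), opposite to Sepp1.

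The sort was checked with markers of the cells that bone marrow could add. Summed over 15 plasmacytoid dendritic cell markers, CpG-A libraries held 19929 to 23823 FPKM and control libraries 9800 to 16732 FPKM, and none of the 15 was called, or Klk1 alone with the replicate block (higher, adjusted p = 0.0165). The 7 T cell markers summed to 26.8 to 64.8 FPKM with CpG-A and 67.1 to 90.8 FPKM in control, with Cd3e at 0, and Cd28 was called lower with the block (0.0447). The 8 erythroid markers summed to 60.8 to 265 FPKM with CpG-A and 89.0 to 139 FPKM in control, with Klf1 at 0. The 6 of basophils and mast cells summed to 1.66 to 18.2 FPKM with CpG-A and 0.04 to 22.5 FPKM in control, with Il4 at 0. Neutrophil markers reached at most 19.5 FPKM with CpG-A and 26.2 FPKM in control. In bulk RNA, fewer cells of a type and less RNA per cell cannot be told apart.

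A few markers of other cells did rise. Ncr1, a receptor of natural killer cells, stood at 68.2, 19.3 and 28.1 FPKM with CpG-A and 0, 0.06 and 0.06 FPKM in control (log2 difference 5.05, SE 0.71, adjusted p = 0.00109), the 1 call among 11 markers of those cells (with the replicate block Klrd1 was also called, lower, adjusted p = 0.0166), whose sum was 641 to 1056 FPKM with CpG-A and 651 to 1162 FPKM in control. Ly6c1, on the list of monocytes and macrophages, stood at 12379, 15732 and 14418 FPKM with CpG-A and 3417, 3820.3 and 5437 FPKM in control (log2 difference 1.77, SE 0.28, adjusted p = 0.00288). It made up nearly all of that list's sum of 12379 to 15793 FPKM with CpG-A and 3556 to 5630 FPKM in control; 8 of the 12 markers lay below 1 FPKM in all 6 libraries, and C1qc was listed at 0. Ly6a, the antigen Sca-1 on the progenitor list and itself inducible by interferon, stood at 7699, 6408 and 11057 FPKM with CpG-A and 463, 82.9 and 1949 FPKM in control (log2 difference 4.27, SE 0.75, adjusted p = 0.00715; not called without the libraries numbered 1). The part of other cells in the differences above was not tested.

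CpG-A was also set against the other classes at the same dose and time. No gene was called between CpG-A and CpG-C in limma (smallest adjusted p = 0.63), with 467 of 11641 genes (4.01%) at an unadjusted p below 0.05; 2 genes were called without CpG-A replicate 3 and 1 without CpG-C replicate 2. The absence of calls does not show that the 2 classes act alike, since real changes can be missed. In simulated data for CpG-A against control, 16% of 100 changes of 2 log2 units and 81% of 100 changes of 4 log2 units were called. The changed genes were drawn from those with a mean log2(FPKM + 1) above 3, and the noise was independent between libraries. Recovery for genes of lower mean, and for CpG-A against CpG-C, was not simulated. Between CpG-A and CpG-B 283 genes (2.43%) were called, 115 higher (0.988%) and 168 lower (1.44%) with CpG-A. Leaving out 1 library gave 120 to 355 calls, and the count fell by more than 1.5 times without any 1 CpG-A replicate (173, 137 and 160 without replicates 1, 2 and 3) or CpG-B replicate 1 (120).

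Among the 110 genes named for CpG-A against control, 6 were higher with CpG-A than with CpG-B and 20 lower. The higher ones were alpha interferons and genes of the lineage. Ifna9 had 357, 22.5 and 99.1 FPKM with CpG-A and 0.09, 0.39 and 7.84 FPKM with CpG-B (log2 difference 5.31, SE 1.01, adjusted p = 0.0117), and Ifna12 8.89, 5.92 and 24.2 and 0, 0 and 0.17 FPKM (3.51, SE 0.66, adjusted p = 0.0109). Siglech had 1211, 2522 and 2319 FPKM with CpG-A and 104, 253 and 230.1 FPKM with CpG-B (3.39, SE 0.41, adjusted p = 0.00068). Irf8 had 437, 544 and 715 and 29.1, 69.6 and 196 FPKM (2.89, SE 0.55, adjusted p = 0.0113), and Cd7 and Tcf4 were higher as well.

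Of the 20 lower ones 14 were also falls against control, namely 11 of the 25 largest and Rps19, Rpl12 and Marchf1; the other 6 were Ccl3, Ccl4, Ccr7, Il12b, Bcl2a1d and Ifi205. Ccl3 had 7023, 671 and 508 FPKM with CpG-A and 38541, 15924 and 12241 FPKM with CpG-B (-3.87, SE 0.79, adjusted p = 0.0185). Ccl4 had 8959.9, 1917 and 1133 and 30345, 27196 and 10991 FPKM (-2.95, SE 0.64, adjusted p = 0.0237). Ccr7 had 31.1, 2.28 and 73.3 FPKM with CpG-A and 292, 448 and 619 FPKM with CpG-B (-4.45, SE 1.06, adjusted p = 0.0393). Il12b had 0, 0.18 and 52.6 FPKM with CpG-A and 65.6, 118 and 117 FPKM with CpG-B (-4.62, SE 1.14, adjusted p = 0.0468). Among the falls, Ifitm2 was at 0.09, 0.23 and 0 FPKM with CpG-A and 319.6, 315 and 314 FPKM with CpG-B (-8.17, SE 0.99, adjusted p = 0.00068). Lactb had 0, 0.05 and 0.06 FPKM with CpG-A and 149, 110.2 and 50 FPKM with CpG-B (-6.52, SE 0.81, adjusted p = 0.000707). These contrasts share the CpG-A libraries with the comparison against control, so both sets of values are not independent.

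**Figure D5:**
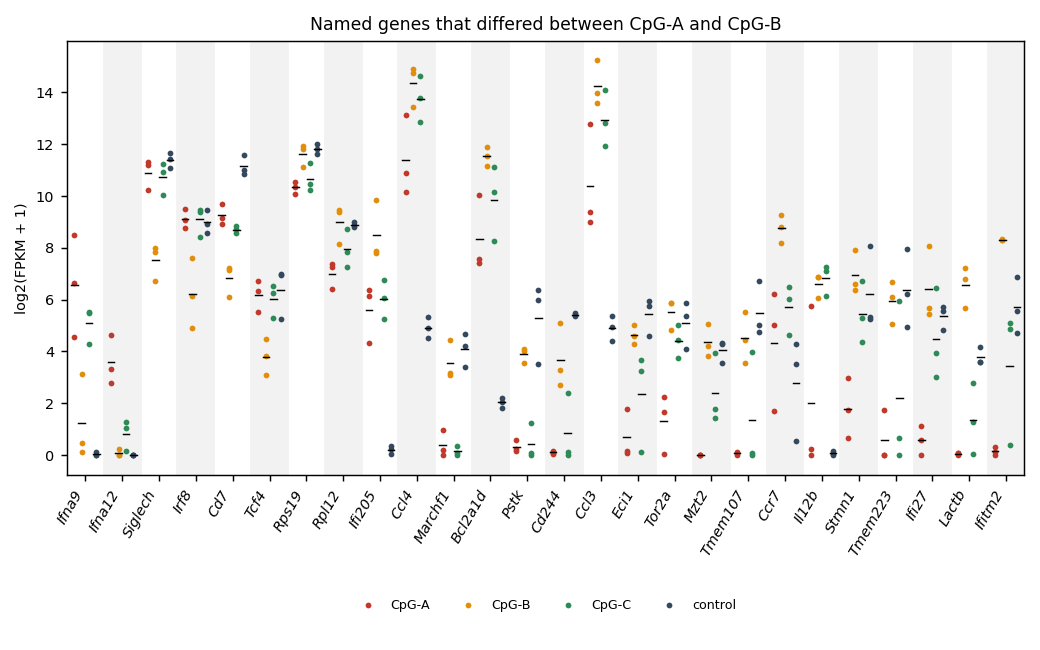
log2(FPKM + 1) (y axis) of the 26 named genes called between CpG-A and CpG-B, in order of that log2 difference, in each library of the CpG-A, CpG-B, CpG-C and control groups (red, orange, green, blue-grey); bars are group means. The Siglech and Irf8 means are lowest with CpG-B, while Ifitm2 is high with CpG-B (314 to 320 FPKM) and near 0 with CpG-A.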

How the data were processed

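RNA-seq of 12 libraries was used as deposited. The values are FPKM, 1 column per library, as deposited by the authors; per the submitters' processing notes the tools included RSEM 1.2.8, Bowtie2 2.2.5, HISAT, StringTie and GATK, and the build was mm10, with no roles given. Of 21574 lines 1 could not be read. The numbers of 17546 of 17590 known genes were found in RefSeq, and 24 symbols turned into dates by a spreadsheet were restored. FPKM carry no read counts, so no counting interval is given. Low FPKM values give a rough depth of 23500000 to 34400000 fragments per library. It is the depth at which values of short genes came closest to whole fragments, and it is loose. At best 46.7% to 81.1% of the values lay near a whole fragment, against 30% to 41.9% with transcript lengths shuffled. For control replicate 3, which gave the highest depth, the shares were 46.7% and 37.5%.

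Genes that reached 1 FPKM in 3 or more libraries were compared on log2(FPKM + 1) with limma 3.58.1 in R 4.3.3 (all 12 libraries, 1 mean per group, empirical Bayes with a mean-variance trend). Adjusted p-values are two-sided, by Benjamini-Hochberg over 11641 genes, and a gene was called below 0.05. Log2 differences are on the log2(FPKM + 1) scale, understate changes of low genes, and are not given against a group listed at 0. An exact permutation test of 3 against 3 cannot go below 0.1, so none was run.

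Named genes are the 25 largest rises and the 25 largest falls among called known genes without overlap and with at least 5 FPKM in the higher group, called list members, and a followed set (Ifnb1, Ifna4, Ifna2, Siglech, Tcf4, Tlr9, Irf8, Ccr7, Cd274, Il6, Il12b and H2-Ab1); uncalled list members appear with their values. The comparison, lists and rule were chosen with earlier results of these data known. The replicate numbers come from the labels. Same-numbered CpG-A and control libraries deviated together across genes (correlations 0.106, 0.133 and 0.117, against -0.085 to -0.030 for different numbers). Deviations from a group mean cancel out within the group, so the negative values are not separate evidence. The correlations are small and come from the data that were tested. The main fit takes no account of the numbers. A fit with the number as a block takes them as pairing the samples and is given beside results it changes. The fit was tested on simulated data. Promoter windows are RefSeq's, GRCm38.p6; the letters searched in them were chosen after results with longer forms had been seen. Results for a few items are not reported here.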

Additional observations from a re-analysis of the deposited data

How the results depend on the processing

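In none of the alternatives did any of the 171 called genes change sign. Against 122 higher and 49 lower, there were 76 and 26 without a filter on low values, 191 and 94 with the replicate block, 74 and 12 without the 4 libraries numbered 1, and 17 and 2 in a fit to the 6 libraries of the comparison alone. The lower calls were 31 with 0.1 added before the logarithm and 22 with 0.01. Leaving out each library in turn gave 93 to 146 higher and 26 to 57 lower. The share of calls that were higher, 71.3%, stood at 77.9% and 77.7% under the 2 scalings and at 82.1% with 0.01 added, 86% without the libraries numbered 1 and 89.5% in the fit to 6 libraries. That share was lower with the replicate block (67%) and with library weights (70.3%), and lay between 69.2% and 78.2% with 1 library left out. Between CpG-A and CpG-B, 283 calls became 150 with 0.01 added, 157 without a filter, 434 with the replicate block, 509 with library weights, 72 in a fit to the 2 groups alone and 120 to 355 with 1 library left out. Between CpG-A and CpG-C, 0 became 0 to 2 with 1 library left out and stayed at 0 otherwise. For the 110 genes named by the rule, the replicate block changed no call other than those of Ifnb1 and Cd274. Library weights brought in Ifna4 and Cd274. Log2 differences of genes that were not called crossed 0 for Tcf4 (0.016 with median-of-ratios scaling, -0.77 to 0.13 with 1 library left out), Tlr9 (0.39 without the libraries numbered 1, 0.19 with weights, -1.19 to 0.20 with 1 library left out), Irf8 (-0.088 to 0.36 with 1 library left out) and H2-Ab1 (-0.028 without the libraries numbered 1). The causes were not tested. The fit to 6 libraries has fewer samples by construction.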

Other observations

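Of the 1693 tested genes with only a provider's name, 10 were called higher and 3 lower. Over all 11641 tested genes the calls were 122 (1.05%) and 49 (0.421%). The provider-named genes given here were chosen after their values were seen. BGI_novel_G004087 (chromosome Y, 90719503 to 90722189, plus strand) stood at 201, 608 and 172 FPKM with CpG-A and 0.43, 7.17 and 4.88 FPKM in control (log2 difference 6.08, limma adjusted p = 0.000423). BGI_novel_G004086, next to it, and BGI_novel_G004091, farther along the same chromosome, rose by log2 differences of 4.71 and 4.76 (adjusted p = 0.00635 and 0.00751), and these 3 were all of the provider-named genes tested on chromosome Y. BGI_novel_G002904 (chromosome 5, 74093052 to 74094336) stood at 0.1, 0.17 and 0.17 FPKM with CpG-A and 29.9, 46.2 and 56.8 FPKM in control (log2 difference -5.26, adjusted p = 0.00838). Known genes called outside the lists numbered 86.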
